A study of Rattus norvegicus with 12 samples.

Results

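The genes described here are the subunits of the AMPA and kainate receptors: Gria1, Gria2, Gria3 and Gria4 for the AMPA receptor, and Grik1, Grik2, Grik3, Grik4 and Grik5 for the kainate receptor. They were found by their gene symbol among the array probes that are not controls, which gave 14 probes for these 9 genes, out of 30367 probes and 26214 gene names in all. There were 4 genes with 1 probe and 5 with 2 probes. A filter on dim probes left 13 of the 14 probes and all 9 genes for testing, and 10 of the 14 were well above background on all 12 arrays.

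Their transcripts were measured by 1-colour arrays in cultures enriched in neurons, which were prepared from the cerebellum of Sprague-Dawley rats taken 1 day after birth and harvested at 16 days in vitro. There were 6 control arrays, from cultures given the solvent alone, and 6 arrays of cultures given 1 µM acetamiprid (ACE), a neonicotinoid insecticide that acts on nicotinic acetylcholine receptors. Both groups received 0.001% DMSO from day 2, and both were kept in medium with 1% fetal bovine serum for the first 8 days and without serum afterwards. The control and ACE cultures of a replicate number came from a single lot of cells, pooled from the newborn animals of 1 litter, so each comparison below (control versus ACE, CvA) is made within 6 lots. Cultures given nicotine or imidacloprid are not analysed here. The question behind CvA was whether gene expression in developing cerebellar cells is altered when they are kept in a low dose of ACE for most of their time in culture.

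The 75th percentile of the processed intensity ran from 1803 to 4384 over the arrays, and 75.4 to 91.0% of spots were well above background. Of the marker genes measured, 6 of 7 for granule cells, 7 of 8 for Purkinje cells, 5 of 6 for inhibitory neurons and 7 of 8 for astrocytes were well above background on all 12 arrays, the exceptions being Barhl1, Foxp2, Pax2 and Gdf10. So were 8 of 8 for the oligodendrocyte lineage, 6 of 6 for microglia and 3 of 5 for meningeal fibroblasts (not Dcn and Lum). A skeletal muscle list, for which 5 of 7 genes were well above background on all arrays (not Ckm and Myh3), had a mean log2 difference of -1.15 in ACE. Its summed intensity was 24548 to 112461 in control and 28933 to 63046 in ACE. All 8 of its probes tested were lower in ACE, but 0 had an adjusted limma p under 0.05, the lowest being 0.264. The part of this list in the results below was not tested. The cultures are mixed, and in such samples fewer cells of a type and less RNA per cell cannot be told apart.

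AMPA receptors are tetramers of GluA1 to GluA4, the products of the Gria genes, and carry most of the fast excitatory transmission in the brain. The GluA2 subunit, when its transcript has been edited at a single codon by the adenosine deaminase ADAR2, makes the channel nearly impermeable to calcium, so the share of GluA2 sets how much calcium enters. Kainate receptors are built from the low-affinity subunits GluK1 to GluK3 (Grik1 to Grik3), which form channels on their own, and the high-affinity subunits GluK4 and GluK5 (Grik4 and Grik5), which need a low-affinity partner. In the cerebellum, granule cells express AMPA receptors rich in GluA2 and GluA4, Purkinje cells express GluA2 and GluA3, and Bergmann glia express GluA1 and GluA4.

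The array measures each gene through probes of 60 bases, and the sequences of 6 of them are given because paralogous subunits are alike and a probe has to tell them apart. Each is written 5′ to 3′ in the sense of the transcript. Capitals mark the bases that the Gria2 and the Gria3 probe have in common when they are set against each other, and the other probes are written in lower case.
Gria1: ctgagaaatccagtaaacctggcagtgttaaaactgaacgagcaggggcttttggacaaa
Gria2: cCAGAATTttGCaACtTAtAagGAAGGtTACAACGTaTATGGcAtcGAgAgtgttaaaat
Gria3: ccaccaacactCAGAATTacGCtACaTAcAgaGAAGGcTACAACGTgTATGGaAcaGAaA
Gria4: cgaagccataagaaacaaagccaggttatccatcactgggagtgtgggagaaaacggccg
Grik1: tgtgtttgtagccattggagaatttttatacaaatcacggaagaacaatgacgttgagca
Grik4: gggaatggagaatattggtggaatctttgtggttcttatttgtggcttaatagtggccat

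The file headers give these probes coordinates in build rn4. The Gria2 probe lies at chr2:172269214-172269273, the Gria3 probe at chrX:3459714-3459773, the Gria4 probe at chr8:957385-957444, the Grik1 probe at chr11:27722939-27722998 and the Grik4 probe at chr8:45514232-45514291, all on the minus strand, while the Gria1 probe has no position there. Of 86 pairs of probes for different subunits, the Gria2 and Gria3 probes printed above were the most alike on the same strand, with 36 identical bases of 50 that overlap (72.0%). The longest unbroken run shared by probes of different subunits was 10 bases, as between the Gria1 and Gria2 probes printed above. The probes were compared with each other only, and not with the transcripts of the other subunits. How well a probe tells the transcripts of the subunits apart was therefore not tested. For 13 of the 14 probes the transcript that the array names carries the same symbol in RefSeq (assembly GRCr8); a Grik2 probe found no entry there. The exon in which a probe lies was not analysed here.

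No subunit passed the test in the CvA comparison. Of the 13 probes, 0 had an adjusted limma p under 0.05, as was the case for 0 (0%) of all 23796 probes tested. Without adjustment, 0 of 13 had a limma p under 0.05, against 3956 of all 23796 probes (16.6%). Of all probes tested, 6.9% were under this threshold and higher in ACE, and 9.73% under it and lower. The 13 differences ran from -0.22 to 0.076 log2, with 6 above and 7 below zero and a median of -0.0084, against -0.0050 over all probes. Scaled by a 75th percentile shift in place of quantile normalisation, 2 were above and 11 below zero, with a median of -0.059 against -0.033 over all probes, and without replicate 2 they were likewise 2 and 11. None of the 13 probes had the same direction in all 6 pairs, which 11.7% of probes with 6 pairs had. In none did the control and ACE arrays stay apart, as they did for 0.0126% of all probes, and none reached a mean change of 1.5-fold, which 1.72% of all probes did. For 12 of the 13 probes the whole 95% interval of the difference lay within a 1.5-fold change either way (0.58 log2). The exception was Grik1. The same was true of 21165 of all 23796 probes, so it does not set the subunits apart. Among the 12 are the dimmer Gria2 probe and Grik3, which were well above background on 4 and 5 of 12 arrays.

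**Figure D1:**
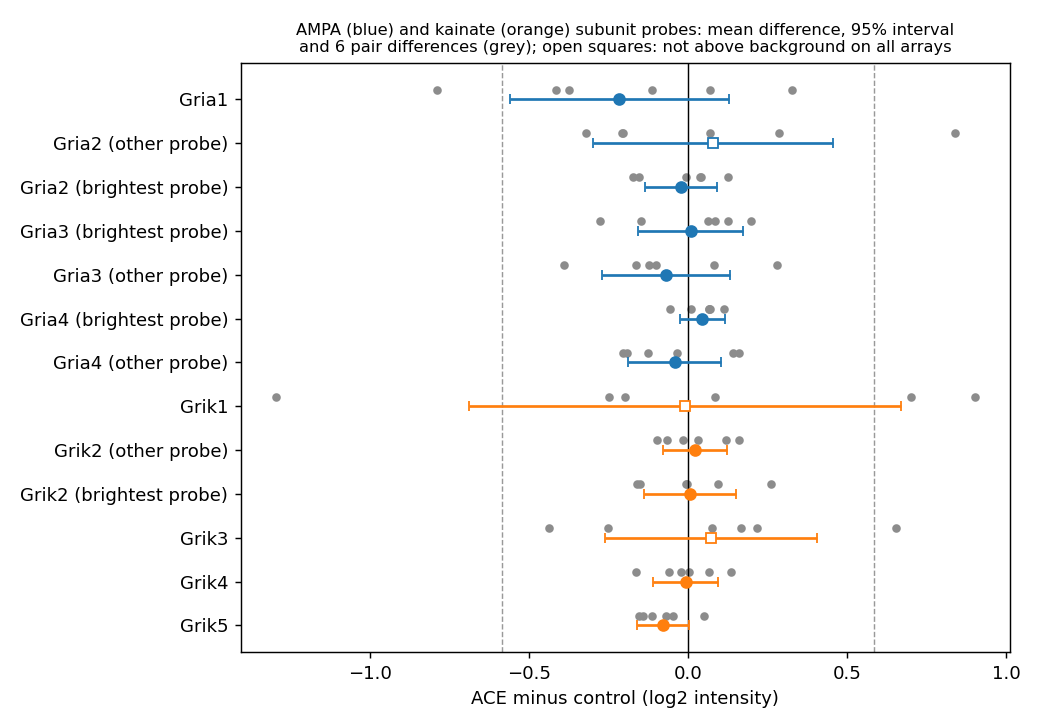
Difference between ACE and control in log2 intensity (x axis) for the 13 subunit probes tested (y axis): the mean of 6 pairs with its 95% limma interval, the 6 pair differences as grey points, and a 1.5-fold change as dashed lines. Every interval includes zero, and that of Grik1 alone reaches past the dashed lines.

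Among the AMPA subunits, Gria1, which encodes GluA1, had the largest difference of the 13 probes. Its log2 intensity was 5.00 at the lowest, 5.72 at the median and 6.38 at the highest in control, and 4.89, 5.66 and 5.90 in ACE. The groups thus overlapped over most of their range, and ACE was lower in 4 of 6 pairs and higher in 2. The mean difference was -0.22 ± 0.14 log2 (SE, n = 6 pairs), with a limma p of 0.176 and an adjusted p of 0.474. The pair differences were -0.11, -0.37, 0.33, 0.07, -0.79 and -0.42 for replicates 1 to 6, so that replicates 3 and 4 ran against the mean and replicate 5 was the furthest below zero. Without replicate 5 the difference was -0.10, and without replicate 3 it was -0.33 (limma p 0.0472, adjusted 0.282). With all replicates it was -0.10 with normexp background and -0.32 after the 75th percentile shift. This probe was spotted 10 times on each array, and the SD between its spots within an array had a median of 0.12 log2, below the SD of 0.40 between the pair differences.

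Gria2, the subunit that limits calcium entry, was measured by a bright and a dim probe. The bright probe ran from 7.74 through a median of 8.46 to 8.70 in control and from 7.73 through 8.46 to 8.61 in ACE. These ranges nearly coincide, and 3 of 6 pairs were higher in ACE. The difference was -0.022 ± 0.047 log2 (SE), which in percent is -1.54% with a 95% interval of -8.96 to 6.48%, and the limma p was 0.650. The second Gria2 probe (chr2:172265169-172265228, minus strand) was well above background on 1 control and 3 ACE arrays, and its difference of 0.076 ± 0.16 log2 rests on values of which most are near background.

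Gria3, which encodes GluA3, had 2 probes that were well above background on all arrays. The first (chrX:3452571-3452630, minus strand) had a log2 intensity of 10.96, 11.52 and 11.93 (lowest, median and highest) in control and of 11.16, 11.51 and 11.85 in ACE. Its difference was 0.0068 ± 0.068 log2 (SE), with 4 of 6 pairs higher in ACE and a limma p of 0.923. The second, printed above, ran from 7.90 through 8.92 to 9.48 in control and from 8.18 through 8.88 to 9.09 in ACE, a difference of -0.070 ± 0.084 log2 (limma p of 0.435). That difference was -0.14 without replicate 1 and -0.0061 without replicate 5. In both probes the ACE array was the higher one in replicates 1 and 2 and the lower one in replicates 5 and 6, by up to 0.28 and 0.39 log2 in replicate 5.

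Gria4, which encodes GluA4, varied least between arrays among the AMPA subunits. The probe with 10 spots (chr8:1016916-1016975, minus strand) ran from 10.68 through a median of 10.75 to 11.01 in control and from 10.62 through 10.84 to 11.02 in ACE. ACE was higher in 5 of 6 pairs, yet by only 0.044 ± 0.030 log2 (SE), or 3.07% with a 95% interval of -1.91 to 8.31% (limma p of 0.189). The second Gria4 probe, which the array assigns to another transcript of the gene, gave -0.043 ± 0.061 log2 and was lower in 4 of 6 pairs. Its difference was -0.084 without replicate 4 and -0.011 without replicate 5. The direction of Gria4 thus depended on the probe, and over the 12 arrays the pair of probes correlated at an r of 0.32, against 0.87 for the Gria2 probes, 0.87 for the Gria3 probes and 0.98 for the Grik2 probes. These correlations are over arrays that share 6 lots and are given as a description.

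**Figure D2:**
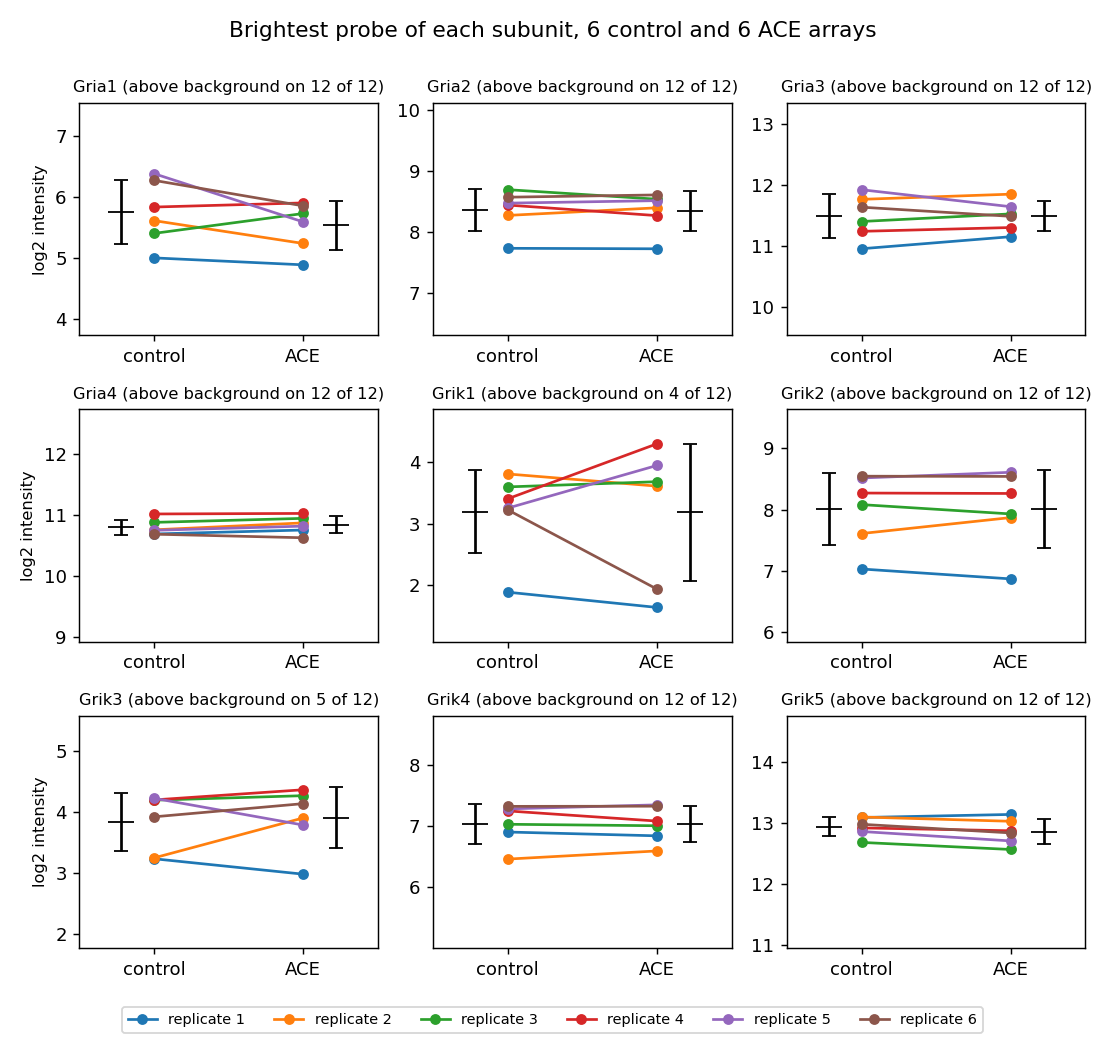
Normalised log2 intensity (y axis, each panel spanning the same number of log2 units) of the brightest probe of each subunit on the 6 control and 6 ACE arrays, joined by replicate, with the mean and SD of each group beside the points. Lines run close to level for Gria2, Gria4, Grik2 and Grik4, cross for Gria1, and scatter for Grik1 and Grik3, which were well above background on 4 and 5 of 12 arrays.

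Among the low-affinity kainate subunits, Grik1 (GluK1) and Grik3 (GluK3) were at the edge of detection. The Grik1 probe printed above was well above background on 1 control and 3 ACE arrays, and its log2 intensity was 1.88, 3.33 and 3.81 (lowest, median and highest) in control against 1.63, 3.65 and 4.31 in ACE. Its difference of -0.010 ± 0.28 log2 (SE) had a 95% interval of -0.69 to 0.67, the widest of the 13, so that a 1.5-fold difference in either direction was not detectable with this probe. The second Grik1 probe (chr11:27704155-27704214, minus strand) was the one that the filter removed: it was well above background on 0 control arrays and 1 ACE array, and no fold is given for it. Grik3 (chr5:145057988-145058047, plus strand) was well above background on 2 control and 3 ACE arrays and ran from 3.23 through 4.06 to 4.22 in control and from 2.98 through 4.02 to 4.36 in ACE. The Grik3 difference was 0.070 ± 0.14 log2, with 4 of 6 pairs higher in ACE and a limma p of 0.631.

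Grik2, which encodes GluK2, was the low-affinity subunit measured above background on all arrays, by 2 probes. The brighter probe (chr20:53231518-53231577, minus strand) ran from 7.03 through 8.17 to 8.55 in control and from 6.86 through 8.09 to 8.61 in ACE, and the other (chr20:53230626-53230685, minus strand) from 6.02 through 7.14 to 7.63 and from 5.95 through 7.15 to 7.66. The ranges are wide and almost the same in both groups. Within pairs, the probes differed by 0.0049 ± 0.061 and 0.021 ± 0.042 log2 (SE), with limma p-values of 0.938 and 0.629. For the second probe the 95% interval was -5.38 to 8.86%.

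Of the high-affinity subunits, Grik4 (GluK4) was measured by a probe with 10 spots, with 6.46, 7.14 and 7.32 log2 (lowest, median and highest) in control and 6.60, 7.05 and 7.35 in ACE. The difference of -0.0084 ± 0.042 log2 (SE) corresponds to -0.58% with a 95% interval of -7.36 to 6.70%, and 3 of 6 pairs were higher in ACE. After the 75th percentile shift the Grik4 difference was -0.074 (limma p 0.0550, adjusted 0.294), where the median over all probes was -0.033. Grik5 (GluK5; chr1:80313819-80313878, minus strand) came closest to the threshold of the 13 probes. Its log2 intensity was 12.69, 12.95 and 13.10 in control and 12.57, 12.86 and 13.14 in ACE. The groups overlapped, but ACE was the lower array in 5 of 6 pairs, with pair differences of 0.050, -0.070, -0.12, -0.047, -0.15 and -0.14 for replicates 1 to 6. The mean difference was -0.080 ± 0.034 log2 (SE), or -5.38% with a 95% interval of -10.6 to 0.133%. The limma p was 0.0542, the adjusted p 0.308, and the exact two-sided sign-flip permutation over the 6 pairs gave 0.0938, where 0.03125 is the smallest it can give. Without replicate 1, the only pair in which ACE was higher, the difference was -0.11 (limma p 0.0134, adjusted 0.212).

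Averaged over its tested probes, each of the 9 genes was also compared by the exact two-sided sign-flip permutation. The unadjusted p-values of this permutation were 0.219 for Gria1, 0.938 for Gria2, 0.688 for Gria3, 1 for Gria4, 1 for Grik1, 0.844 for Grik2, 0.688 for Grik3, 0.875 for Grik4 and 0.0938 for Grik5. None of the 9 was under 0.05 before any adjustment. Since the mixture of subunits shapes the properties of a receptor, they were also set against each other within each pair. Relative to the mean of Gria1, Gria3 and Gria4, Gria2 differed by 0.11 ± 0.31 log2 (SD, n = 6 pairs) between ACE and control and was relatively higher in 3 pairs and lower in 3. The low-affinity kainate subunits relative to Grik4 and Grik5 differed by 0.068 ± 0.27, and the AMPA relative to the kainate subunits by -0.052 ± 0.19. In each of these 3 balances the mean was smaller than the SD between pairs, and they are given without a test. They include the dim Gria2, Grik1 and Grik3 probes, whose values are mostly near background: with only probes well above background on all arrays, the Gria2 balance was 0.060, and it was 0.057 with normexp background, 0.033 with the brightest probe of each gene and 0.017 after the 75th percentile shift. The low-affinity balance was 0.15 without the filter on dim probes and 0.027 after the shift, and the balance of AMPA and kainate subunits was -0.14 without the filter and -0.024 with normexp background. The values without the filter take in the second Grik1 probe, which was well above background on 1 of 12 arrays. Without replicate 2 the Gria2 balance was 0.013, without replicate 4 the low-affinity balance was -0.0069, and without replicate 5 the balance of AMPA and kainate subunits was 0.0095, so the sign of the latter 2 rested on a single lot.

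Arrays of different lots differed far more than the control and ACE arrays of the same lot did. Each lot also had a slide of its own, so cells and slide cannot be told apart. The share of a probe's variation over the 12 arrays that lay between lots had a median of 92.1% over the 13 subunit probes. Over all probes with 6 pairs it was 92.0%. The share of exposure ran from 0.0019% for the brighter Grik2 probe to 6.15% for Gria1. A share over 6 lots is on average larger than that of a single contrast even without any true difference. Grik2 followed the lot most closely: 98.3 and 99.2% of the variation of its probes lay between lots, and the highest lot was 3.07 and 3.17 times the lowest. The corresponding spread of lots was 2.17-fold for Gria1, 1.85-fold for the bright Gria2 probe, 1.68-fold and 2.36-fold for the Gria3 probes, and 1.74-fold for Grik4. It was smallest for Gria4, at 1.29-fold and 1.51-fold, and for Grik5, at 1.41-fold. The dim probes of Gria2, Grik1 and Grik3 spread 5.39-fold, 4.30-fold and 2.25-fold, on values mostly near background.

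Replicate 1 was the lowest lot for most subunits. Of the 13 subunit probes, 9 (69.2%) had their lowest lot mean there, against 26.4% of all probes, and among probes well above background on all arrays it was 6 of 10 (60.0%) against 27.3%. Grik2 was at 7.03 and 6.86 log2 on the control and ACE arrays of replicate 1 in its brighter probe and between 7.61 and 8.61 on the other arrays. Gria2 was at 7.74 and 7.73 there in its bright probe, with all other arrays between 8.27 and 8.70. Grik5 went the other way, at 13.09 and 13.14 in replicate 1, its highest lot, and Grik4 and the second Gria4 probe were lowest in replicate 2. Leaving replicate 1 out brought the range between lots from 1.62 to 0.82 log2 for the brighter Grik2 probe and from 0.89 to 0.28 log2 for the bright Gria2 probe, while that of Grik4 stayed at 0.80.

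Replicate 1 also stood apart in other measures, whose part in these levels was not tested. Its arrays alone were extracted with an older software version, while every replicate had a slide of its own and replicates 1, 2 and 3 each a scan of their own. They were also the brightest, with a 75th percentile of 4272 and 4384 against 1803 to 3903 on the others, and had 91.0 and 90.4% of spots well above background against 75.4 to 84.7%. The granule cell markers had a mean log2 intensity of 7.60 in this lot against 7.85 to 8.39 in the others, the inhibitory neuron markers 8.20 against 8.74 to 9.58, and the skeletal muscle markers 10.82 against 7.38 to 9.76. The oligodendrocyte lineage markers were at 13.65 against 13.75 to 14.48, and the astrocyte markers at 13.96 against 13.49 to 13.93. The Purkinje cell markers (8.98 against 8.63 to 9.18), the microglia markers (13.07 against 12.76 to 13.17) and the meningeal fibroblast markers (10.09 against 9.82 to 11.03) lay within the range of the other lots. Since each lot holds a control and an ACE array, the CvA differences above are free of the difference between lots.

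**Figure D3:**
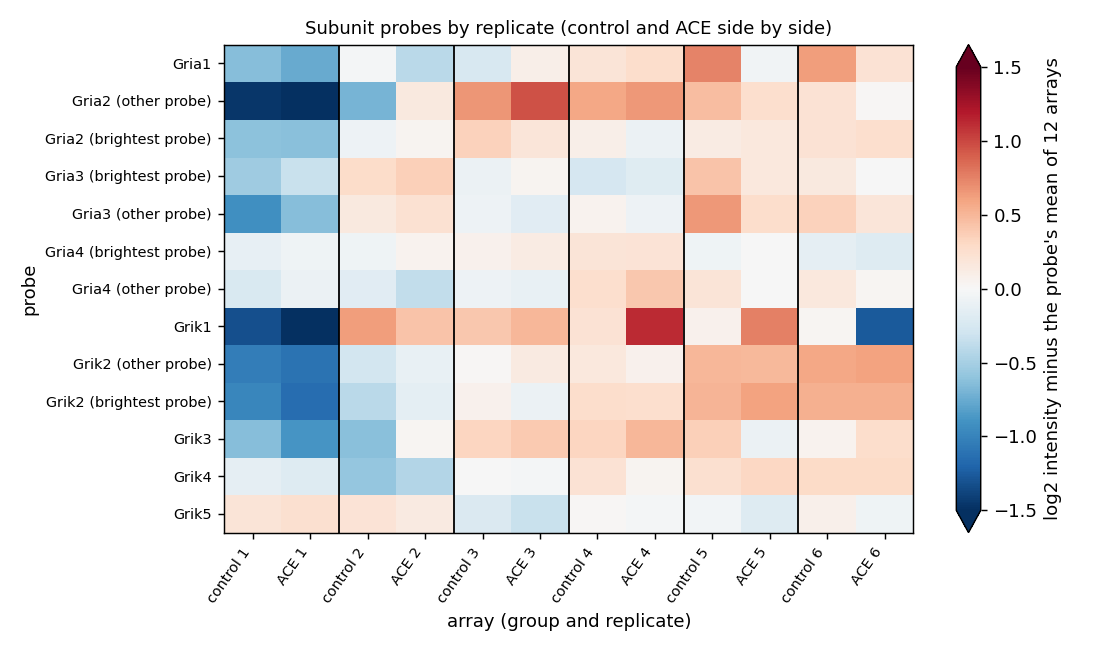
Log2 intensity of the 13 subunit probes (rows) on the 12 arrays (columns, in pairs by replicate) relative to each probe's mean over the arrays, blue for lower and red for higher; the colour scale ends at the arrows. The columns of a pair mostly share their colour, and those of replicate 1 are blue for all probes except Grik5, faintly so for Gria4 and Grik4.

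The genes whose probes followed a subunit most closely over the 12 arrays, of 14366 probes searched, were also listed. They were Kcnn4 for Gria2 (Pearson r of 0.99), Rfwd2 and Dpp10 for Grik2 (0.99 each), Mobp for Grik4 (0.97), Lphn2 for Gria3 (0.96), Dlg2 for Gria4 (0.96), Emp1 for Grik5 (0.96) and Ube4b for Gria1 (0.95). For the dim Grik1 and Grik3 probes they were Ypel4 (0.90) and Cdkl3 (0.94). Among the subunits themselves the closest were Gria2 and Grik2, with an r of 0.87, and the furthest apart Grik3 and Grik5, at -0.73. With only 6 lots behind the 12 arrays and so many probes searched, these values describe the arrays and carry no test.

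The subunits work with partner proteins, and a list of 50 such genes was examined: auxiliary subunits of both receptors, scaffold and trafficking proteins, synapse organisers and related receptors, RNA editing enzymes, and glutamate supply. The array held 47 of them (not Cnih3, Shisa9 and Neto2), and 60 probes of 45 genes were tested. At the adjusted threshold 0 of 60 passed. Before adjustment, 13 had a limma p under 0.05 (21.7%, against 16.6% of all probes), 7 higher and 6 lower in ACE. Leaving out replicate 2 or replicate 4 lowered this count to 8 of 60, near the share of all probes in these settings (11.8% and 14%). The median difference was 0.010 log2. By group, the unadjusted count was 3 of 20 probes for AMPA auxiliary subunits, 6 of 26 for scaffold and trafficking proteins, 2 of 7 for synapse organisers and related receptors, 2 of 3 for RNA editing, 0 of 3 for glutamate supply and 0 of 1 for the kainate auxiliary subunit Neto1.

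Of the 3 RNA editing probes, 2 had an unadjusted limma p under 0.05 and 0 an adjusted one. Adarb1 encodes ADAR2, the enzyme that edits the Gria2 transcript, and its log2 intensity averaged 11.80 ± 0.10 over the control and 11.91 ± 0.11 over the ACE arrays (SD, n = 6). The difference of 0.11 ± 0.030 (SE) was positive in 6 of 6 pairs (limma p of 0.00795, adjusted 0.183). Adar, which encodes the related ADAR1, differed by 0.27 ± 0.069 log2, from 6.62 ± 0.19 to 6.89 ± 0.21 (SD), also in 6 of 6 pairs (adjusted limma p of 0.175). Adarb2, a brain-specific relative without known editing activity, differed by 0.076 ± 0.15 and was positive in 3 of 6 pairs, with its probe well above background on 5 of 12 arrays. With normexp background the Adar difference was 0.17. The arrays measure transcript level, and the editing of Gria2 itself was not analysed here.

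Among scaffolds, Dlg4, which encodes the postsynaptic protein PSD-95, had the largest positive difference of the named partners. It averaged 6.08 ± 0.21 log2 over the control and 6.40 ± 0.31 over the ACE arrays (SD), and the difference was 0.33 ± 0.074 (SE) with 6 of 6 pairs positive and an adjusted limma p of 0.156. With normexp background it was 0.19. Grip1, which encodes a protein binding the tail of GluA2 and GluA3, was negative in 2 of its 3 probes, by -0.099 ± 0.028 in 6 of 6 pairs and -0.20 ± 0.071 in 5 of 6 (adjusted limma p of 0.196 and 0.253), while the third probe differed by 0.030 ± 0.079. The second of these Grip1 values was -0.29 after the 75th percentile shift and -0.084 with normexp background. Its relative Grip2 differed by 0.17 ± 0.064 in one probe and by -0.11 ± 0.16 in a second, which was well above background on 6 of 12 arrays. The former was 0.054 after the 75th percentile shift and 0.063 with normexp background (unadjusted limma p-values of 0.397 and 0.121). Nptx2, a secreted pentraxin that clusters AMPA receptors at synapses, differed by -0.16 ± 0.052, with 5 of 6 pairs negative. A probe of its receptor Nptxr was the last of the 13 at an unadjusted p under 0.05, at -0.15 ± 0.060, and was named after its value was seen; another Nptxr probe, well above background on 6 of 12 arrays, differed by 0.22 ± 0.12.

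Of the AMPA auxiliary subunits, Shisa7 had the lowest p of the list, at 0.00174, but the adjusted limma p was 0.143. That probe differed by 0.25 ± 0.049 log2 (SE) with 6 of 6 pairs positive, whereas the other Shisa7 probes differed by -0.25 ± 0.11 and -0.23 ± 0.24, so the probes of this gene disagreed in sign. The last of them was well above background on 6 of 12 arrays, and the first differed by 0.15 with normexp background. Prrt1 likewise gave 0.16 ± 0.050 in one probe and -0.15 ± 0.097 in another, and Shisa8 -0.13 ± 0.043 and 0.043 ± 0.053. Cacng2, which encodes stargazin, the auxiliary subunit that brings AMPA receptors to the surface of granule cells, differed by 0.11 ± 0.062 (limma p of 0.134). Cbln1, which encodes a synapse organiser secreted by granule cells, differed by 0.28 ± 0.091 with 6 of 6 pairs positive (adjusted limma p of 0.228).

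**Figure D4:**
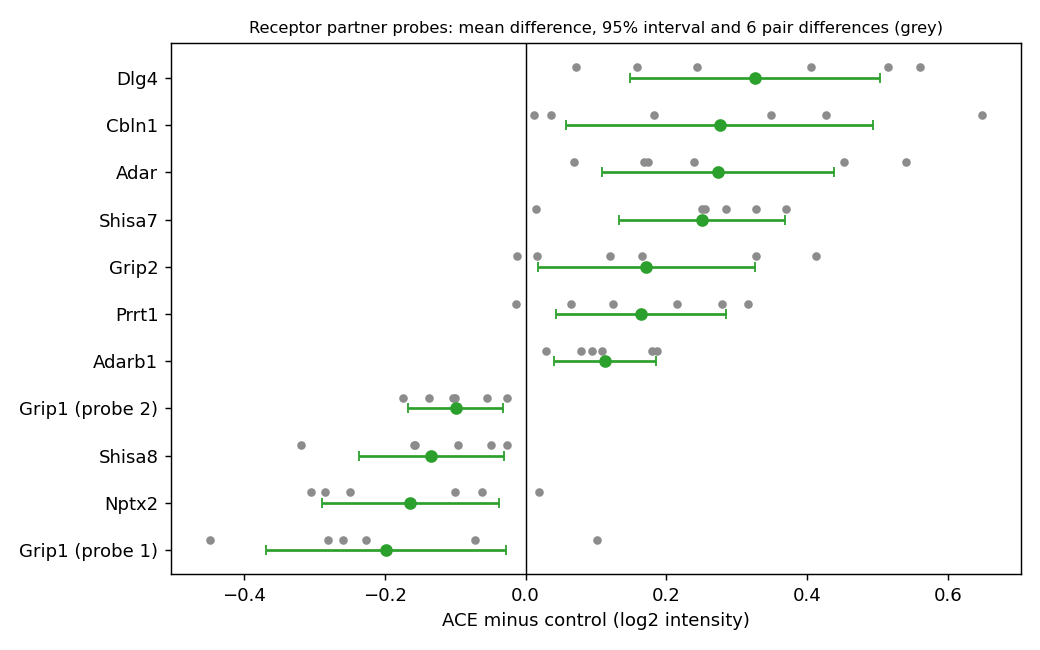
Difference between ACE and control in log2 intensity (x axis) for 11 of the 12 partner probes with the lowest unadjusted limma p (y axis), as the mean of 6 pairs with its 95% interval and the pair differences as grey points. The intervals exclude zero because the probes were chosen by their p, and no adjusted p was under 0.05.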

How the data were processed

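Each array carried 1 labelled RNA. Per the file headers, the authors took the intensity of its spots from the scan with Agilent software (Feature Extraction 11.0.1.1 on replicate 1, 11.5.1.1 otherwise), which subtracted background and spatial trends without scaling between arrays. They also deposited a log2 table, normalised and centred per probe, used as an alternative (r of 0.997 to 0.999 with the values computed here). Quantile normalisation removes any shift that all probes of an array share.

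Here, outlier spots were set to missing (447 probe values), log2 processed intensity was quantile normalised over 12 arrays, and multiple spots for one probe were averaged. Probes above the 20th percentile of their array on at least 7 arrays, with at least 4 complete pairs, were tested (23796) with limma 3.58.1 in R 4.3.3, two-sided, the replicate number as a fixed block, and Benjamini-Hochberg adjustment over all of them at 0.05. Intervals are at 95%. The procedure was tested on simulated data with changes larger than any subunit difference given here, so that test does not show whether changes this small would be found. The block follows the lots of cells; deviations from group means correlated at 0.449 to 0.912 for equal replicate numbers and at -0.439 to 0.390 otherwise. On every slide the control sat at place 1 and its ACE partner at place 3, so place and exposure cannot be told apart. Array files were loaded through data.table (1.17.8), and figures drawn with matplotlib 3.10.9.

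The members and lists were chosen with earlier results of these data known. All members are named with every probe; of the partner list, the 12 probes with the lowest unadjusted p, of which 1 is not reported here; and for each subunit's brightest probe, the genes with the highest correlation among probes well above background. Alternatives were the 75th percentile shift, normexp background, the deposited table, other filters, no block, a random block, the exact signed-rank test, the brightest probe of a gene, and each replicate left out. Gene names are those of the array design, and the number of arrays limits precision.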

Additional observations from a re-analysis of the deposited data

Results flagged for a closer look

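In 3 of 32 groups of 6 arrays, the lowest array lay further from the others than Dixon's 95% limit for 6 samples allows, and chance flags about 1 in 20 groups. The Grik1 probe was at 1.88 log2 on the control array of replicate 1, with the next control array at 3.22. The dim Gria2 probe was at 1.70 log2 on the ACE array of replicate 1, with the next at 3.49. The low-affinity kainate subunits minus Grik4 and Grik5 stood at -6.12 log2 on the control array of replicate 1, with the next at -5.08. All 3 lie in replicate 1, and both probes are near background. The last value holds the Grik1 value of the first and is not independent of it, and because it sets probes against each other it can be read only from array to array.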

How the results depend on the processing

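No subunit probe had an adjusted p under 0.05 under any alternative, and the 12 named partner probes kept their sign in all 156 alternative values, though some moved by over 1.5 times, among them Grip2, from 0.17 to 0.054 after the 75th percentile shift. The count of subunit probes at an unadjusted p under 0.05 was 0, but 1 after the 75th percentile shift, with normexp background, with only probes well above background, and with a random block (Grik5 each time), and 0 to 1 with a replicate left out (Grik5 without replicate 1, Gria1 without replicate 3). Ignoring the pairing (no replicate block) left 81 of all probes and 1 partner probe at that threshold, and the random block put 5 probes of the array past the adjusted one. The partner count was 8 of 60 by the exact signed-rank test, against 11.6% of all probes. It was 8 to 14 with a replicate left out, against 11.8 to 17.5% of all probes. Of the probes at an unadjusted p under 0.05, 41.5% were higher in ACE, against 19.7% after the shift and 51.5% in the deposited table. The share of variation between lots was 86.4 to 93.7% with a replicate left out, lowest without replicate 1.

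Signs turned in 21 of 166 alternative values for subunit probes and 21 of 115 for subunit genes, all of values that passed no test. The 75th percentile shift gave -0.040 and -0.032 for the Grik2 probes, -0.051 for Grik3 (probe and gene), -0.16 for the dim Gria2 probe, and -0.11, -0.010 and -0.036 for the genes Gria2, Gria4 and Grik2. With normexp, the brighter Gria3 probe gave -0.011 and the gene Gria4 -0.0055. Without the filter, the gene Grik1 gave 0.26, a value that takes in its second probe, well above background on 1 of 12 arrays. With the bright probe alone, Gria2 gave -0.022, also with only probes well above background, and Gria3 0.0068. With a replicate left out, the probes ranged from -0.037 to 0.023 for Grik4, -0.031 to 0.064 and -0.0065 to 0.045 for the brighter Gria3 and the dimmer Grik2 probe, -0.046 to 0.038 for the brighter Grik2 probe, -0.047 to 0.17 for Grik3, -0.19 to 0.25 for Grik1, and -0.076 to 0.16 and -0.052 to 0.0077 for the Gria2 probes. The genes ranged from -0.064 to 0.065 for Gria2, -0.086 to 0.029 for Gria3, -0.020 to 0.019 for Gria4 and -0.026 to 0.039 for Grik2. The cause was not tested. With only probes well above background, Grik1, Grik3 and the kainate balances gave no value.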
